A study of Arabidopsis thaliana with 12 samples.

Results

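The isolated new domains were 1770 stretches of the Arabidopsis thaliana genome that lay under a peak of trimethylated lysine 27 of histone H3 (H3K27me3) in both val1val2 double mutant libraries and far from any such peak in wild type. They were chosen by peak coverage alone. A member had at least 200 bp covered in both val1val2 lists, overlapped no peak of either wild-type list, and had its nearest edge more than 2 kb from every wild-type peak. Of 9663 val1val2 domains of at least 200 bp, 1770 (18.3%) met this rule, 466 were new but within 2 kb of a wild-type peak, and 7427 overlapped a wild-type peak. This count, the enrichment of the members in val1val2 and the absence of peaks in wild type follow from the choice and are given as a description with no test. A list holds only regions that passed peak calling, so a region without a wild-type peak may still carry some of the mark.

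All plants were 14-day-old Col-0 seedlings kept at 22 °C with 16 h of light and 8 h of dark. Chromatin was precipitated with an anti-H3K27me3 antibody from wild type and from val1val2 (2 libraries each), and with a GFP antibody from VAL1-GFP in val1 (2 libraries) and VAL2-GFP in val2, for which 1 list was used. Each tagged protein was thus mapped in a single mutant of its own gene, with its partner gene intact, and each genotype had 1 input. The labels do not give the val1 and val2 alleles or the promoters of the tagged genes, whole seedlings mix cell types, and nothing says whether the libraries came from separate cultures.

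H3K27me3 is laid down by Polycomb repressive complex 2 and marks genes that are kept silent in a given tissue. VAL1 and VAL2 are repressors with a B3 DNA-binding domain that reads the RY motif, and in seedlings they are known for recruiting Polycomb proteins to seed maturation genes and to FLC, a repressor of flowering. The domains described here are regions where the mark was called in the absence of both proteins.

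The sequences below show what the strongest sites look like, with capitals for the RY core TGCATG or its reverse CATGCA. Each is 200 bp of the plus strand of TAIR10, read from RefSeq's TAIR10.1. The first 5 are centred on the first-library VAL1 summit of the 5 members with the strongest VAL1 peaks, and the last on the middle of the member with the highest H3K27me3 enrichment, which had no VAL1 summit.
intergenic, near AT2G03985, chr2:177850-178049: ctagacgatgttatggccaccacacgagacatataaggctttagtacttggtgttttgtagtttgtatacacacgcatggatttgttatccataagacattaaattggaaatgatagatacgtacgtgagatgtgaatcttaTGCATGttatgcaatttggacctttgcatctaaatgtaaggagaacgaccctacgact
PTAC16, chr3:17228651-17228850: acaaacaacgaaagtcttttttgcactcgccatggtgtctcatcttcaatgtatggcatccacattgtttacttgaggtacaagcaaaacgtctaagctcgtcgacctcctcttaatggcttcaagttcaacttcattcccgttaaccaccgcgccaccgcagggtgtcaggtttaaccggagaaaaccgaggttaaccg
AT2G15830, chr2:6894184-6894383: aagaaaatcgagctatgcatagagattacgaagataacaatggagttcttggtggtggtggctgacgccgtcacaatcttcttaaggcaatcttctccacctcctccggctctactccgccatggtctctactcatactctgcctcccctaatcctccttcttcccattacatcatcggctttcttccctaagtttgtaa
PSBQ-2, chr4:2672621-2672820: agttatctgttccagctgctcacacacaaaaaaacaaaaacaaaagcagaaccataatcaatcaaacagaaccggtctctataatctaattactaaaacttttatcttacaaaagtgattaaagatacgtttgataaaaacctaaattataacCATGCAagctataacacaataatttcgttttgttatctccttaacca
upstream of PGIP2, chr5:2133811-2134010: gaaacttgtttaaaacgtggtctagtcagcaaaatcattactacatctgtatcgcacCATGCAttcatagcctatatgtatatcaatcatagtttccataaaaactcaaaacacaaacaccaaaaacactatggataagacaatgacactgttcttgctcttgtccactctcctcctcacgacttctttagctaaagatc
NRP1, chr2:1039494-1039693: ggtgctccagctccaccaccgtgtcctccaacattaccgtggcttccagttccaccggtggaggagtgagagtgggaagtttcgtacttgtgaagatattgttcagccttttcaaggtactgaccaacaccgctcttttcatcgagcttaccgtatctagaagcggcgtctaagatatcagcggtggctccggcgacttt
The core was present in the stretches near AT2G03985, at PSBQ-2 and upstream of PGIP2. The windows at PTAC16, AT2G15830 and NRP1 did not hold these letters. By the annotation, the VAL1 summit of PTAC16 lay in an untranslated exon, that of AT2G15830 in a coding exon, that of PSBQ-2 in an intron and that of PGIP2 just upstream of the gene.

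By median, the members were shorter and less enriched than shared domains, and longer and more enriched than new domains within 2 kb of a wild-type peak. Their summed length was 1873 kb, with a median of 793 bp (quartiles 471 and 1357.5 bp, longest 5523 bp), against a median of 1837 bp for the domains shared with wild type and 835 bp for the 599 isolated lost domains. The latter are wild-type domains found by the mirror of the rule, more than 2 kb from every val1val2 peak, and made up 7.35% of 8155 wild-type domains. Fold enrichment is the authors' ratio of a peak over its local background. Its median over the members was 1.74 in both val1val2 libraries, below 1.98 at shared domains. New domains within 2 kb of a wild-type peak had a median length of 569 bp and medians of 1.51 and 1.49-fold. The values of isolated lost domains come from the wild-type libraries, which had another input, and gave a median of 1.83 in both.

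The 2 val1val2 libraries gave close values for the same member. The log2 ratio of the fold enrichments in replicate 2 and replicate 1 had a standard deviation of 0.13, and 1727 of the 1770 members (97.6%) lay within 1.25-fold. The part covered in both libraries made up a median of 82.9% of the joint span of the peaks. Members were chosen for a peak in both libraries, so this agreement is in part set by the rule. Few members were strong. In both libraries 169 (9.55%) had a −log10 q of at least 10, and 58 (3.28%) were enriched at least 3-fold. The q limit was met by 39.0% of shared domains and 3.43% of new domains within 2 kb of a wild-type peak. In the wild-type libraries 18.5% of isolated lost domains met it. A −log10 q of at least 2 in both was reached by 959 members (54.2%), against 85.2% of shared domains and 35.2% of new domains within 2 kb. Isolated lost domains gave 60.9% in the wild-type libraries. The lower quartile of −log10 q over the members was 1.24 in replicate 1 and 1.30 in replicate 2, so many members were weak calls.

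**Figure D1:**
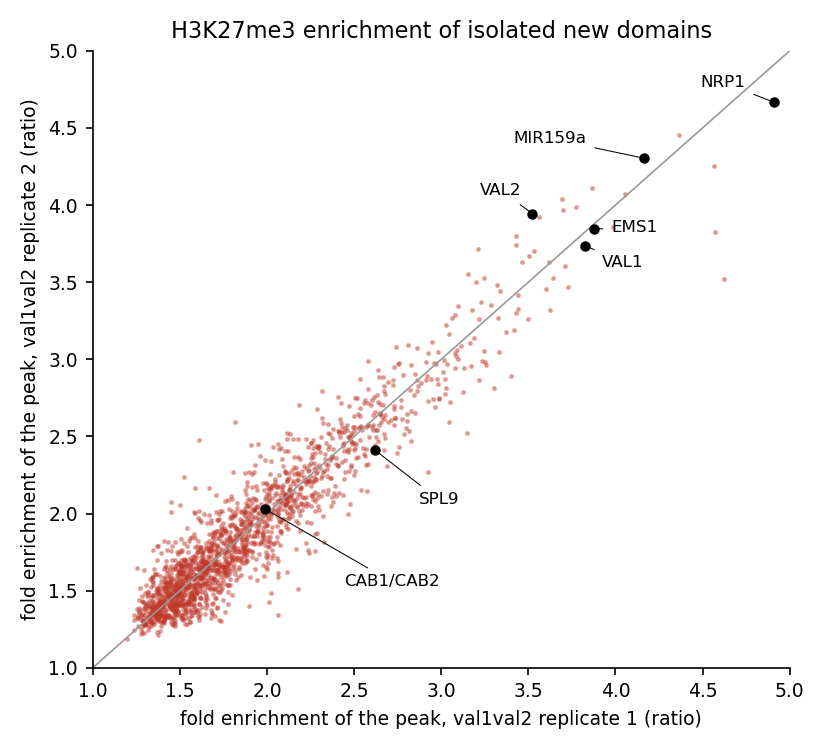
Fold enrichment of the val1val2 peak over each of the 1770 isolated new domains in replicate 1 (x axis, ratio) and replicate 2 (y axis, ratio); each point is a domain, the line marks equal values and 7 domains are named in black. The points follow the line, most lie below 2.5, and NRP1 has the highest values, 4.91 and 4.67.

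The number of isolated new against isolated lost domains depended on the peak threshold. As deposited there were 1770 new and 599 lost, and the val1val2 lists were longer, with 9925 and 10024 peaks against 8324 and 8325. With each list reduced to its top 8324 peaks there were 1147 and 884, and with only peaks of −log10 q of at least 10 in every list 806 and 719. The excess of new over lost domains was thus smaller with stronger peaks, and the lists do not give the depth of the libraries. With that limit on the val1val2 peaks and the wild-type lists in full, 169 domains met the rule and 4286 wild-type domains met its mirror, since a wild-type domain at a weaker val1val2 peak then counts as lost.

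Members lay a median of 6841.5 bp from the nearest wild-type peak (quartiles 4055 and 12275 bp). There were 613 between 2 and 5 kb away, 552 between 5 and 10 kb and 396 between 10 and 20 kb. Only 70 (3.95%) were more than 50 kb away, and the farthest lay at 508992 bp. The members nearest to the limit follow. Just inside the limit were members at ALY2 (2002 bp), AT2G27590 (2005 bp), AT2G06560 and PROPEP2 (both 2007 bp). Their fold enrichment was 1.80 and 1.93, 2.20 and 2.17, 2.19 and 1.99, and 1.64 and 1.60 in replicates 1 and 2. Just outside it were AT3G29790 (1999 bp), ENODL5 (1994 bp), ERF53 (1993 bp) and AT3G44096 (1990 bp), with 1.40 and 1.44, 2.88 and 2.35, 1.74 and 1.97, and 1.86 and 1.89. The values on both sides of the limit overlapped.

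**Figure D2:**
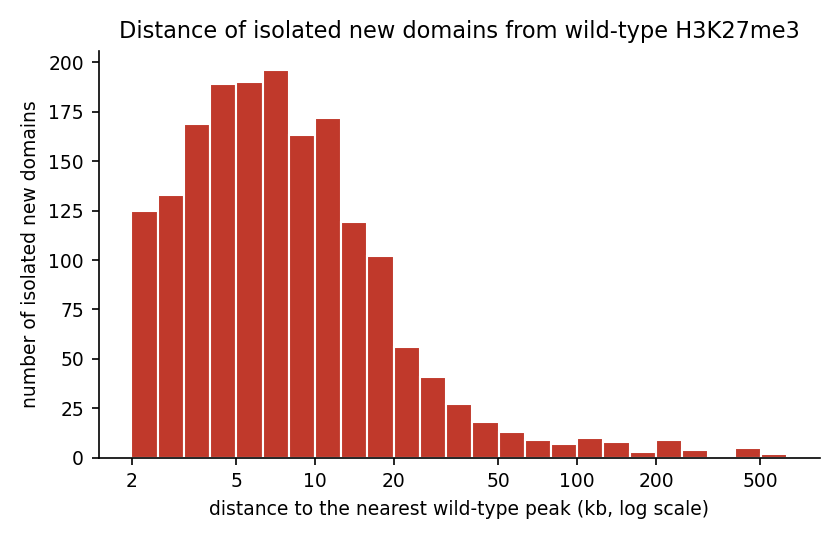
Number of isolated new domains (y axis) by distance to the nearest wild-type H3K27me3 peak (x axis, kb, log scale). Most lie between 2 and 20 kb, and a tail of 41 domains lies beyond 100 kb.

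The far tail differed in content. Of the 41 members beyond 100 kb, 16 (39.0%) overlapped a protein-coding gene and 13 (31.7%) a pseudogene, against 82.6% and 7.25% of the 552 members between 5 and 10 kb. The fold enrichment of the far members was not lower: the lower of both libraries had a median of 1.81 there and 1.69 at 5 to 10 kb. The 5 chromosomes held similar densities of members, from 13.6 per Mb on chromosome 5 to 16.1 on chromosome 3.

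Members mostly lay inside genes. A protein-coding gene was overlapped by 1358 members (76.7%), and 926 (52.3%) touched such a gene without holding a transcription start or end, against 26.7% of shared and 36.1% of isolated lost domains. The new domains within 2 kb of a wild-type peak gave a similar 54.1%. Coding sequence made up 43.5% of their length, against 37.5% of shared domains, 25.9% of isolated lost domains, 45.3% of new domains within 2 kb of a wild-type peak and 28.3% of the genome. A transcription start lay in 321 members (18.1%) and in 46.7% of shared domains. Shared domains are longer, and within the class of 1000 to 1999 bp the shares were 26.7% and 39.7%, with 25.6% for isolated lost domains.

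Domains covered at least 20% of 1097 of 27444 protein-coding genes (4.00%), at least 50% of 574 and the whole of 85. These genes had a median length of 1775 bp and a median of 3 exons, against 2078 bp and 4 exons for all protein-coding genes, and 26.9% had a single exon, against 20.8%. Genes covered by shared domains had a median of 1636 bp and 2 exons, and 29.4% had a single exon. Over the covered genes, the members were most frequent in the first part of the body: 76.2% of the genes were covered at the peak of the profile, 34.5% at the start and 23.9% at the end. Isolated lost domains had a similar shape over their genes, with 77.2, 46.0 and 25.4%.

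**Figure D3:**
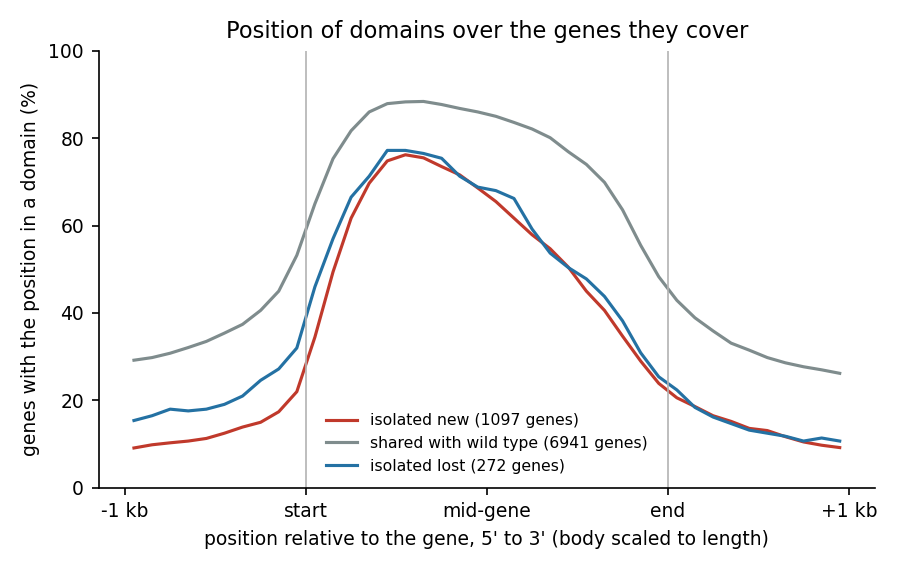
Share of genes (y axis, %) whose position (x axis, 1 kb upstream, gene body scaled to its length, 1 kb downstream) lies in a domain, for genes covered 20% or more by isolated new, shared or isolated lost domains. The isolated new domains peak at 76.2% in the first part of the body and fall to 23.9% at the end, below the shared domains at every position. The isolated lost domains peak at 77.2% and fall to 25.4%.

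VAL1 and VAL2 summits were less frequent at the members than at the wild-type domains that disappeared. A VAL1 summit found in both lists within 200 bp lay inside 182 members (10.3%, exact 95% interval 8.91 to 11.8%) and within 1 kb of 425 (24.0%, 22.0 to 26.1%), where all val1val2 domains gave 41.2%. At isolated lost domains the shares were 44.2% (40.2 to 48.3%) and 76.6% (73.0 to 80.0%). A VAL2 summit lay inside 269 members (15.2%, 13.6 to 17.0%) and within 1 kb of 897 (50.7%, 48.3 to 53.0%), where all val1val2 domains gave 59.1%. Isolated lost domains had 42.4% and 84.3%. New domains within 2 kb of a wild-type peak gave 7.73 and 28.8% for VAL1 and 13.7 and 53.6% for VAL2. Shares below those of lost domains were thus not particular to the members. With a summit in a single list taken as enough, the VAL1 share of members within 1 kb was 53.2% without VAL1-GFP replicate 1 and 36.2% without replicate 2, and with summits of −log10 q of at least 2 it was 8.19%. These intervals cover counting error only and treat neighbouring domains as independent.

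**Figure D4:**
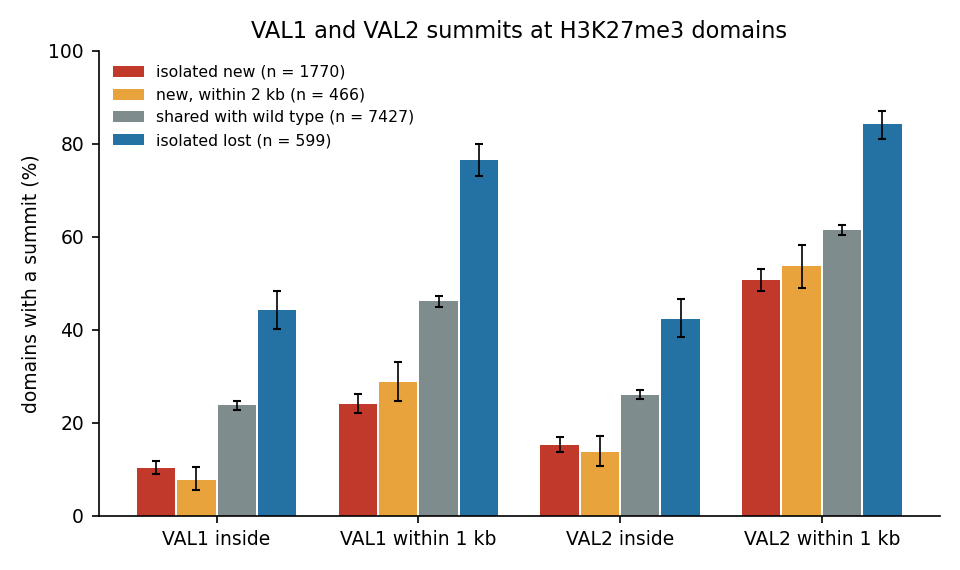
Share of domains (y axis, %) with a VAL1 or VAL2 summit inside them or within 1 kb, for 4 sets of domains; bars are shares and error bars exact 95% binomial intervals. Isolated new domains (red) stand at 10.3, 24.0, 15.2 and 50.7%, and isolated lost domains (blue) are highest in each group.

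The gap to isolated lost domains was present at every length. Among domains of 1000 to 1999 bp, 24.5% of members and 78.8% of isolated lost domains had a VAL1 summit within 1 kb, and among those of 200 to 499 bp 21.4% and 65.3%. Per length, members held 121 VAL1 and 199.7 VAL2 summits per Mb, near the genome's 116 and below its 256, while isolated lost domains held 546 and 585. Shared domains held 154 and 197, and new domains within 2 kb of a wild-type peak 113 and 259.6. Genome tiles as long as the median member, free of any H3K27me3 peak and over a protein-coding gene for at least 50% of their length, had a VAL1 summit inside in 5.41% of cases and within 1 kb in 18.7%. The 1247 members that lay over such genes to the same extent gave 11.5% and 26.4%. For VAL2 the values were 11.7% and 37.3% for tiles and 16.0% and 56.7% for members. Lengths vary among members and not among tiles.

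Strong summits were rare. A VAL1 summit with a −log10 q of at least 10 in both lists lay inside 2 members (0.113%, 0.0137 to 0.408%) and 13.4% of isolated lost domains, and a VAL2 summit of that strength inside 8 members (0.452%) and 10.5%. Neither protein had a summit within 1 kb of 821 members (46.4%), against 32.4% of shared domains and 60 of the 599 isolated lost domains. The members with more enrichment had somewhat more VAL1: in 5 equal groups ordered by the lower fold enrichment, the share with a VAL1 summit within 1 kb was 18.9, 21.2, 24.3, 27.1 and 28.5%. The more enriched groups were also longer, with median lengths from 420.5 to 1287.5 bp.

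The RY core was also less frequent at members than at isolated lost domains. TGCATG or CATGCA was present in the central 300 bp of 110 members (6.21%, exact 95% interval 5.14 to 7.44%), 13.7% of shared domains, 25.4% of isolated lost domains and 11.8% of all 300-bp windows of the genome. New domains within 2 kb of a wild-type peak gave 6.87% (4.74 to 9.56%), an interval that holds the members' share. Among the 182 members with a VAL1 summit inside, 30 (16.5%) had the core within 100 bp of the summit, against 190 of 265 isolated lost domains (71.7%) and 41.2% of all shared VAL1 summits. The telobox (AAACCCTA or TAGGGTTT), a short element bound by factors that recruit Polycomb proteins, was present in 5.20% of members, 5.40% of shared domains and 3.88% of windows. The GA repeat (GAGAGA or TCTCTC), bound by BPC factors, was present in 32.9% of members, 25.6% of shared domains and 24.4% of windows. New domains within 2 kb of a wild-type peak gave 4.08% for the telobox and 28.3% for the GA repeat. Isolated lost domains gave 2.84 and 24.9%. The motifs were searched on both strands. The 2 forms of the RY core can overlap each other, and a window was counted once.

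Base composition moves with these shares. The median GC content of the central 300 bp was 39.33% for members and 39% for new domains within 2 kb of a wild-type peak. It was 36.67% for shared domains, 35.33% for isolated lost domains and 36.33% for all windows. The members' higher share of coding sequence accompanies this difference, and its part in the motif shares was not tested.

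The 15 members with the highest enrichment had at least 3.61-fold in both libraries. Of these, 14 lay mostly over a protein-coding gene, as did 75.3% of all members. The strongest covered all of NRP1 (AT2G03440, nodulin-related protein 1; chr2:1038931-1040255), with 4.91 and 4.67. AT1G66180, an aspartyl protease gene, had 4.36 and 4.45 over 634 bp at its 5′ part, and AT4G17180, a glycosyl hydrolase gene of family 17, had 4.57 and 4.25. None of these genes was covered by a wild-type peak in either library.

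GID1B (AT3G63010), which encodes a gibberellin receptor, was also among the 15 and had 3.71 and 3.61 over 88.5% of the gene. EMS1 (AT5G07280), a receptor kinase needed for tapetum formation in the anther, had 3.88 and 3.84 over its 5′ part, 29.5% of the gene. CDPK9 (AT5G23580), a calcium-dependent protein kinase, had 4.05 and 4.07, and FPS1 (AT5G47770), farnesyl diphosphate synthase of isoprenoid synthesis, had 3.62 and 3.63. A VAL1 summit lay within 1 kb of 4 of the 15, where 24.0% of all members had one. A VAL2 summit lay within 1 kb of 11, where 50.7% of all members had one.

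The VAL genes themselves carried isolated new domains. VAL1 (AT2G30470, annotated HSI2) was covered in 41.7 and 43.0% of its length in the 2 val1val2 libraries and 0% in both wild-type libraries, by a domain of 2023 bp (chr2:12980645-12982667) with 3.82 and 3.74-fold enrichment. It ran from 53.8 to 95.5% of the gene, counted from its start. VAL2 (AT4G32010, annotated HSL1) was covered in 25.4 and 23.6%, from 72.1 to 95.7% of the gene, with 3.52 and 3.94-fold enrichment. VAL3, a related gene, had a small domain of 412 bp near its start over 7.21% of it, with 1.84 and 1.96. VAL1 and VAL2 are the genes mutated in val1val2. Of the 17 Polycomb and VAL genes listed, these 3 overlapped a member and 11 had no peak in any library. Over the whole genome a member overlapped 1440 of 27444 protein-coding genes (5.25%).

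Of 11 listed genes of the change from juvenile to adult growth, SPL9 and SPL15 overlapped a member, where 5.25% of all protein-coding genes did, and 3 were marked in both wild-type libraries. SPL9 (AT2G42200), which promotes adult leaves and flowering and is a target of miR156, was covered in 94.6 and 95.9% in the val1val2 libraries and 0% in both wild-type libraries, with 2.62 and 2.41-fold enrichment. The domain also held MIR156j on the opposite strand. SPL15, a close relative, was covered in 40.6 and 50.9%, with 2.07 and 2.25.

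The other lists held few genes each, and their counts stand beside the same 5.25% of all protein-coding genes. PIN3, an auxin efflux carrier, was covered in 28.7 and 29.7% in val1val2 and 0% in wild type, as 1 of 10 auxin genes, 8 of which were marked in both wild-type libraries. EMS1 was the only 1 of 9 anther and pollen genes with a member, and CAB1, CAB2 and LHCA2 were the 3 of 7 listed photosynthesis genes with one. No isolated new domain overlapped the 6 seed maturation regulators, the 11 flowering time genes or the 7 housekeeping genes. Each wild-type list had a peak on all 6 seed maturation regulators and on 6 of the flowering time genes. A member lies more than 2 kb from every wild-type peak, so a short gene that carries one could hardly overlap a member. For the remaining flowering time genes and the housekeeping genes, an absence of members would be common in lists this short, at 5.25% per gene. These absences are therefore a description and say nothing particular about these gene lists. No H3K27me3 peak was listed on the housekeeping genes in any library.

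MicroRNA genes were overlapped by members in 9 of 326 cases (2.76%), where 5.25% of protein-coding genes were. Shared domains overlapped 31.3% of the microRNA genes and isolated lost domains 2.45%. The most enriched was MIR159a (AT1G73687; domain chr1:27712025-27713744), with 4.17 and 4.30, followed by the member over MIR5655 with 3.25 and 3.05 and that over MIR156j with 2.62 and 2.41. MIR159a and MIR159b, whose products repress MYB genes of anther development and gibberellin response, were both wholly covered in both val1val2 libraries and not in wild type. MIR159b had 1.89 and 1.96. The mature sequences of the named genes, read at their RefSeq coordinates, are given with the seed (bases 2 to 8) in capitals.
ath-miR159a: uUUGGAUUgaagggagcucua
ath-miR159b-3p: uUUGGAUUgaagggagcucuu
ath-miR156j: uGACAGAAgagagagagcac
ath-miR166c: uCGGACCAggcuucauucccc
ath-miR396b-5p: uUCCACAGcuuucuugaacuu
miR159a and miR159b-3p share the seed UUGGAUU. MIR166c, whose family targets HD-ZIP III genes of leaf polarity, had 1.70 and 1.81, and MIR396b, whose family targets growth-regulating factors, had 1.96 and 2.01. MIR391 (1.62 and 1.67), MIR5018 (1.58 and 1.45) and MIR2937 (1.54 and 1.59) were lower.

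Photosynthesis genes had the highest share of covered genes among 21 families defined by the annotated product. Of 68 genes named for photosystem, light-harvesting or chlorophyll a/b-binding proteins, 15 (22.1%, exact 95% interval 12.9 to 33.8%) were covered at least 20% by members, against 4.00% of all protein-coding genes. Shared domains covered 5 of the 68 (7.35%), against 25.3% of all genes. None of the 15 overlapped a wild-type peak. The family was defined by words in the product, so a few proteins with a PsbP-like domain of other function are among them.

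The domain at CAB1 and CAB2, which encode light-harvesting proteins of photosystem II, covered all of CAB2 and 66.2% of CAB1 (chr1:10474269-10478698), with 1.99 and 2.03-fold enrichment. The genes are near-identical copies, so reads may be split between them. LHCA2, of the antenna of photosystem I, had 1.81 and 2.27, LHCB2.1, a photosystem II antenna gene, had 2.16 and 2.25, and PSAL, a photosystem I subunit gene, had 1.57 and 1.62 with the gene wholly covered. PSBQA and PSBQ-2, of the oxygen-evolving complex, had 2.23 and 2.05, and 1.49 and 1.41. The members over the 15 genes ranged from 1.32 to 3.05-fold. The highest was at AT5G27390, annotated as a putative tagatose-6-phosphate ketose/aldose isomerase with a PsbP-like domain. AT1G77090 (2.57 and 2.56) and AT3G63540 (2.30 and 2.32) were also PsbP-like by annotation. Some members were weak calls: −log10 q was 0.51 and 0.38 at AT5G28450, the lowest, and 1.11 and 0.72 at PSBQ-2.

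VAL1 summits were frequent at photosynthesis genes with or without a member. A summit lay in the gene or within 1 kb of it for 12 of the 15 covered genes (80.0%) and 36 of the 53 others (67.9%), against 39.0% of all protein-coding genes and 31.7% of all genes covered by members. For VAL2 the shares were 73.3, 83.0, 61.8 and 58.8%.

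**Figure D5:**
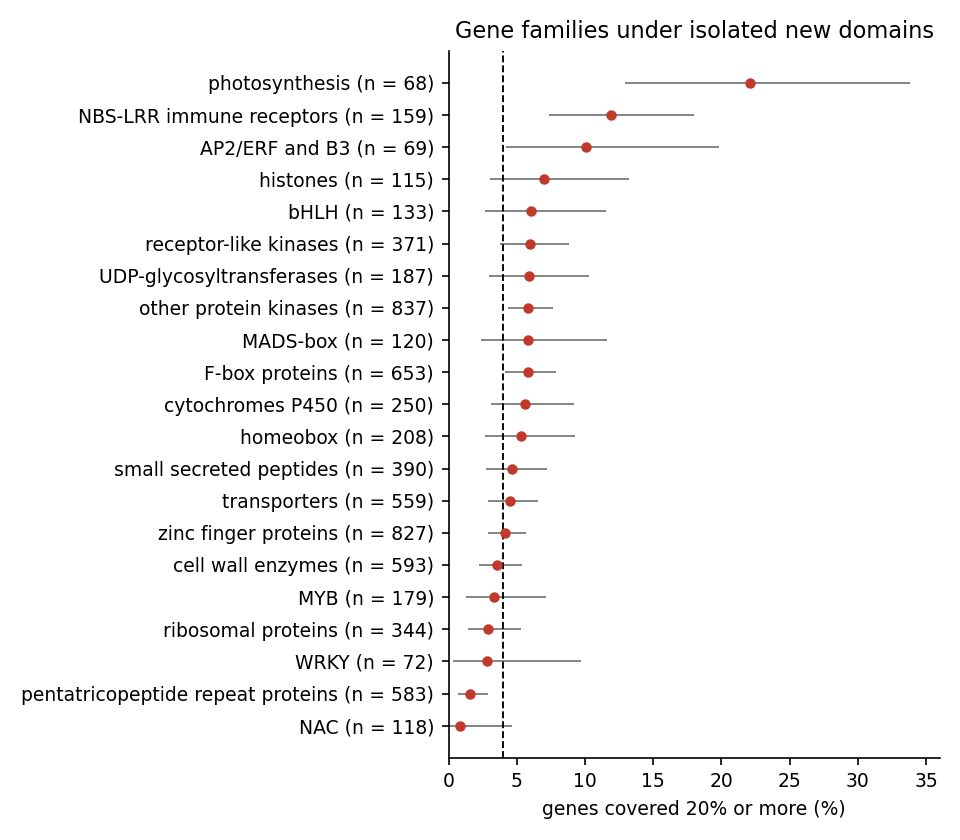
Share of genes in 21 families covered 20% or more by isolated new domains (x axis, %), with exact 95% binomial intervals; the dashed line is the share of all protein-coding genes, 4.00%. Photosynthesis genes are highest at 22.1% and NAC genes lowest at 0.847%.

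Plant immune receptor genes of the NBS-LRR type followed with 19 of 159 (11.9%, 7.35 to 18.0%), among them AT4G27220 and CSA1 (3.02 and 2.77-fold). Genes matched as AP2/ERF or B3 by the words of their product gave 7 of 69 (10.1%, 4.18 to 19.8%). They include TEM1 (AT1G25560), a repressor of flowering, with 3.33 and 3.04. Genes of these families annotated in other words were not counted. F-box genes, 57.1% of which lay under shared domains, gave 38 of 653 (5.82%). NAC genes, 52.5% of which lay under shared domains, gave 1 of 118 (0.847%, 0.0215 to 4.63%), NAC103. That interval holds the 4.00% of all protein-coding genes. Pentatricopeptide repeat genes, which mostly act in organelle RNA processing, gave 9 of 583 (1.54%). Receptor-like kinase, protein kinase, bHLH and MADS-box genes gave between 5.83 and 6.02%. Genes of a family that lie side by side can share a domain, so genes are not independent.

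None of the 5 members with the strongest VAL1 sites was among the 15 with the highest H3K27me3 enrichment. With so few picked from 1770 members, an overlap would be rare in any case. The highest VAL1 fold enrichment, as the lower of both lists, was 3.04 (4.82 in the second) at the intergenic member beside AT2G03985, whose H3K27me3 enrichment was 1.51 and 1.75. PTAC16, which encodes a protein of the plastid chromosome, had VAL1 values of 3.01 and 5.01 and H3K27me3 values of 1.72 and 1.78. AT2G15830 had VAL1 values of 2.85 and 6.33 and H3K27me3 values of 1.53 and 1.47. PSBQ-2 and PGIP2, the latter an inhibitor of fungal polygalacturonases, had VAL1 values of 2.83 and 3.68, and 2.82 and 5.38. Their H3K27me3 values were 1.49 and 1.41, and 2.53 and 2.68.

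For VAL2 the highest was AT3G07350, with a VAL2 fold enrichment of 7.24, VAL1 values of 2.65 and 4.94 and H3K27me3 values of 2.94 and 2.87. AT2G30150, a glycosyltransferase gene, followed with 4.97, the CAB1 and CAB2 member with 4.52 and an intergenic member near AT1G09307 with 4.48. Their H3K27me3 values were 2.67 and 2.62, 1.99 and 2.03, and 1.70 and 1.51. Both VAL1 and VAL2 summits lay inside 103 members, VAL1 alone in 79 and VAL2 alone in 166. The longest member, over AGT and AT2G13350 (5523 bp, H3K27me3 values of 1.81 and 1.82), held a VAL2 summit of 1.41-fold and no VAL1 summit.

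The other longest members were a domain of 5393 bp over the F-box genes AT5G18770 and AT5G18780 and the ribosomal gene AT5G18790 (1.85 and 1.89), one of 5351 bp over AT4G08420 (1.67 and 1.59) and one of 4920 bp over AT5G35380 and the pollen receptor kinase gene PRK1 (1.88 and 1.92). The next were AT5G59670 (4884 bp), PAP5 (4678 bp), AT1G72270 with THI2.1 (4621 bp) and AT5G08600 (4581 bp). None of these longest members was among the 15 chosen for the highest enrichment, so their lower values follow from that choice. The 15 measured 634 to 2195 bp.

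Members often stood alone. With neighbours up to 20 kb apart joined, they formed 1179 stretches, of which 810 held 1 member and 242 held 2. The stretch with the most members was 95.1 kb at the end of chromosome 3 (chr3:23364642-23459709), with 10 members over genes that include HMT2, NEK4, TRM5 and BB, and ended 121 bp from the chromosome's last base. A stretch of 18.6 kb on chromosome 4 held 8 members, over genes that include the calcium-dependent kinase genes CPK31, CPK27 and CPK22. A member is the part covered in both libraries, so 1 long peak of a library can hold several members. Here the members at AT4G04690 and AT4G04692 lay under the same replicate 2 peak. Those at and beside AT4G04693 lay under the same replicate 1 peak. A further stretch on that chromosome held 7, with the immune receptor genes AT4G27190 and AT4G27220, WES1 and BBX28. Another, on chromosome 1 from 15093457 to 15140344 and 46.9 kb long, held 6 and was mostly without genes. Its members at and just before AT1G40105 lay under the same replicate 2 peak. This stretch was 1 of 7 of that size and was taken because it comes first in genome order.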

How the data were processed

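Peak lists of 7 ChIP-seq samples were used, each called by the authors with MACS2 on TAIR10, per the submitters' processing notes, which give no MACS2 version or aligner of the ChIP reads. The deposited fold enrichment is a ratio, the pileup column is a deposited signal of read coverage, and significance was deposited as −log10 p followed by −log10 q, an order taken from MACS2 since those headers were lost to a spreadsheet error. The lists hold no read counts, so depth per sample is unknown, and 2 libraries against 2 cannot give an exact permutation p below 0.333; no p was given. H3K27me3 lists are broad regions, and GFP lists give 1 line per summit.

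Within a library, peaks were merged; domains were intervals covered in both libraries. Genes were those of RefSeq TAIR10.1 (27444 protein-coding). VAL1 summits were shared when both lists had one within 200 bp. Intervals are exact binomial (scipy 1.17.1, Python 3.11.15). The interval code was tested on simulated lists. Named domains were the 15 most enriched, the 8 longest, the nearest to 2 kb, those over listed genes or microRNA genes, those with the strongest VAL1 and VAL2 summits, the densest stretches and those covering most of each family. The members, lists and families were chosen with earlier results of these data known. Alternatives tried changed thresholds, distance, length, replicates and summit windows. The second VAL2-GFP list and the inputs were not analysed here.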

Additional observations from a re-analysis of the deposited data

How the results depend on the processing

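Under other thresholds the number of isolated new domains was 806 with −log10 q of at least 10 in every list, 169 with that limit in val1val2 alone, 1147 with equal numbers of peaks and 1157 beyond 5 kb, against 1770. The number of lost domains by the mirror rule was 4286 when only val1val2 peaks were limited and 322 beyond 5 kb, against 599. In the order q of at least 2, q of at least 10, q of at least 10 in val1val2 alone, equal numbers, beyond 5 kb, beyond 1 kb and a minimum of 500 bp, the summed length was 2023.1, 1574.5, 267.8, 1484.0, 1273.1, 2133.8 and 1700.8 kb, and the median fold enrichment 2.08, 2.74, 2.91, 1.98, 1.78, 1.70 and 1.88. Without the setting beyond 5 kb, the median length was 1196, 1805, 1388, 1050, 758 and 1070 bp. In the first 4 settings VAL1 shares were 29.2, 35.7, 33.1 and 26.2%, and in the first 3 VAL2 shares were 54.0, 56.3 and 60.4%. Summits inside the domain, of q at least 10 and of q at least 2 gave 10.3, 0.735 and 8.19% for VAL1 and 15.2, 6.50 and 33.3% for VAL2. Covered genes numbered 148 with strong val1val2 peaks, 725 beyond 5 kb and 574 at 50% coverage. Median GC was 37.96% with q of at least 10 in every list, 39.92% with strong val1val2 peaks and 38.69% at 500 bp, and the RY share 8.93% with q of at least 10 and 3.79% in the central 200 bp. The cause of these shifts was not tested.

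Leaving out 1 replicate gave 1872 to 2011 new domains, 639 to 664 lost domains, 1976.5 to 2217.5 kb, medians of 793 to 827 bp and 1.66 to 1.74-fold, 1160 to 1249 genes, a GC median of 39.05 to 39.33%, an RY share of 6.02 to 6.61%, a VAL2 share of 50 to 51.3% and a VAL1 share of 24.4 to 53.2%. The VAL1 share was 53.2% without VAL1-GFP replicate 1 and 36.2% without replicate 2, since a summit in 1 list then sufficed. No paired analysis was possible because the results come from no test: each domain is defined from both libraries of a genotype together. Depth is unknown and limits what weak peaks can show.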
